A study of Mus musculus with 6 samples.

Results

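The clustered protocadherins are a family of cell adhesion genes arranged as an alpha, a beta and a gamma cluster. Members were taken as every row of the deposited count matrix whose symbol begins with Pcdha, Pcdhb or Pcdhg followed by a gene number or a C-type name, which gave 24 of 36291 gene rows. The beta cluster had 22 rows, Pcdhb1 to Pcdhb22. The alpha cluster had 1 row, named Pcdha1, and the gamma cluster had 1 row, named Pcdhga11. RefSeq (GRCm38.p6) lists 14 alpha, 22 beta and 22 gamma genes, 58 in all. The matrix thus held the beta genes singly, while the other clusters had 1 row each. Whether such a row covers its whole cluster or only the gene it is named for is not stated. The C-type genes Pcdhac1, Pcdhac2, Pcdhgc3, Pcdhgc4 and Pcdhgc5 had no row of their own and gave no value.

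Clustered protocadherins are cadherin-like surface proteins that bind the same isoforms on a facing cell, and the mix of isoforms that a neuron makes helps it to tell its own branches from those of its neighbours. Each alpha or gamma transcript joins one variable first exon to exons shared by the whole cluster, while each beta gene is a single coding exon with no shared part. Promoter choice depends on CTCF, cohesin and DNA methylation, and gamma genes are known for their part in the survival of cortical interneurons.

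The series compared wild-type (WT) cells with cells lacking Zeb2, which its title calls Sip1, in a study of how cortical interneurons migrate. Both genotypes came from Swiss mice, and the cells were sorted from the telencephalon of embryos at E14.5 by green fluorescence, in 3 WT and 3 knockout (KO) libraries. The labels name an Nkx2-1 iCre driver as the source of the sorted cells in both genotypes, so the WT cells had also been marked by the Cre. That driver confines the marking, and the knockout that the design text calls Sip1|Nkx2-1, to cells with a history of Nkx2-1 expression, mainly of the medial ganglionic eminence (MGE). The floxed and reporter alleles are not stated in the labels. Library titles carry K77, K79 or K80, each number once per genotype, and the labels do not explain it. Whether a library is 1 embryo or a pool is not given either. The p-values therefore speak for these libraries, and how much spread between animals they cover is not known.

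Libraries held 8323531 to 11069437 gene counts. Zeb2 had 5350 to 8094 counts in WT and 2759 to 3391 in KO, with no overlap, and the deleted part of the gene is not given. The 9 MGE interneuron markers summed to 4956 to 5724 CPM (counts per megaread assigned to genes, with library sizes scaled by TMM) in WT and 5786 to 6729 in KO, and each of the 9 was present. All 7 glutamatergic markers were detected as well, summing to 198 to 422 CPM in WT and 218 to 273 CPM in KO. Blood and immune cells left few reads, with 2 of 5 erythroid and 3 of 5 microglial markers under 1 CPM in every library. WT K79 alone had Xist counts (26109, against 13 to 28 elsewhere) and almost no counts of 4 Y-linked genes, and results were therefore also computed without both K79 libraries. The WT libraries thus did not all come from 1 animal.

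No clustered protocadherin differed detectably between KO and WT at this depth. Of the 23 members that passed the filter on low counts, 0 were called by the edgeR quasi-likelihood test at adjusted p under 0.05, where 6.27% of all 13835 genes tested were called. None reached an unadjusted p under 0.05 either, against 18.4% of all genes. DESeq2 and limma voom also called 0 members, where they called 938 of 21680 and 872 of 13835 genes. The median log2 fold change of the 23 members, KO against WT, was 0.04, beside -0.01 for all genes tested, with 13 members above zero and 10 below. With the K number as a replicate block, 10.6% of all genes were called and still 0 members. In bulk libraries, fewer cells of a type and less RNA per cell cannot be told apart.

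The gamma row held more reads than any other member. Pcdhga11, the only gamma row in this matrix, had 760, 705 and 702 CPM in WT (K77, K79, K80 in that order here and below) and 721, 724 and 701 CPM in KO. The KO libraries fell inside the range of WT or just below it, and the log2 fold change was -0.01 (SE 0.0561, 95% interval -0.14 to 0.11, edgeR adjusted p = 0.931). This was the narrowest interval of any member, so a change of the gamma row as a whole by 1.5-fold in either direction lies outside it.

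The alpha row did not separate the genotypes. Pcdha1 had 129, 155 and 146 CPM in WT and 127, 156 and 160 CPM in KO. The genotypes overlapped, and the log2 fold change was 0.04 (SE 0.0955, 95% interval -0.17 to 0.26, edgeR adjusted p = 0.871). Because the alpha and gamma rows each stand alone, exons shared within a cluster had no second matching row to be split with. Which exons each row covers is not stated in the labels or headers, and the row for ambiguous reads, which took 1.94 to 1.99% of all counts in a library, does not say from which genes its reads came. If a row covers its whole cluster, a change in which alpha or gamma isoform is used would not be seen in it.

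The 22 beta rows, summed, reached 150, 166 and 212 CPM in WT and 147, 185 and 216 CPM in KO. The ratio of KO to WT was 0.981 in K77, 1.11 in K79 and 1.02 in K80, and the ratio of the group means was 0.05 on the log2 scale. All the clusters together gave a log2 ratio of 0.01, and each of these sums overlapped between genotypes. No test was made on the sums.

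**Figure D1:**
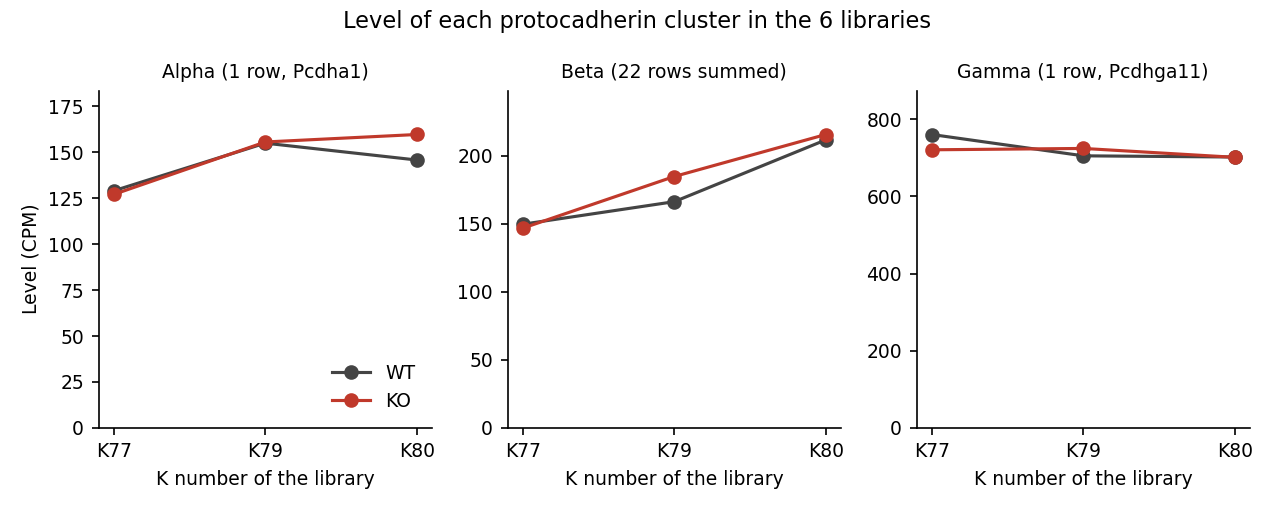
Level of the alpha row, the summed beta rows and the gamma row in CPM (vertical axes from 0) in each library, by K number, with WT in grey and KO in red. The genotypes lie close together in every panel, and the beta sum is lowest in K77 and highest in K80 in both.

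Most of the members' reads fell in the gamma row. That row took 73.2, 68.7 and 66.3% of the members' counts in the WT libraries and 72.5, 68.0 and 65.1% in the KO libraries. The beta rows took 14.4, 16.2 and 20.0% in WT and 14.8, 17.3 and 20.0% in KO, and alpha took the rest. Wilson 95% intervals of these shares extended at most 0.972 percentage points to a side, and cover counting error only. The rows differ in the length and number of transcripts behind them, so the shares compare read counts and not molecules.

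Within the beta cluster, expression was uneven. Pcdhb1 was all but silent, with 0, 0 and 1 counts in WT and 0, 0 and 1 in KO, and was not tested. The 21 other beta genes had 12 to 322 counts per library. Per kilobase of coding sequence (lengths from GENCODE M21, 2.32 to 2.49 kb over the 22 genes), WT levels were highest for Pcdhb17 (10.1 CPM per kb), Pcdhb19 (8.80) and Pcdhb16 (8.06). Pcdhb12 was the lowest tested gene at 0.780 CPM per kb. Per kilobase of exon (2.59 to 8.7 kb), the order shifted. Pcdhb17 (5.19) and Pcdhb16 (3.71) led, then Pcdhb20 and Pcdhb7 (3.57 each), ahead of Pcdhb19 (2.96). Pcdhb14 was then the lowest tested gene (0.425). By coding length, the order was nearly the same in KO. The Spearman correlation across the 21 genes between the WT and KO means was 0.962. It is given as a description, since genes are not replicates and the libraries share their cluster's annotation.

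None of the 3 beta genes with the highest mean CPM separated the genotypes. Pcdhb17 had 21.8, 24.7 and 26.1 CPM in WT and 22.3, 26.7 and 29.1 CPM in KO. The KO library was the higher one in each K number, but the genotypes overlapped, and the log2 fold change was 0.11 (SE 0.119, 95% interval -0.16 to 0.38, edgeR adjusted p = 0.700). Pcdhb19 had 16.1, 21.8 and 25.6 CPM in WT and 18.1, 23.2 and 24.1 CPM in KO, differing by 0.05 on the log2 scale (SE 0.170, 95% interval -0.33 to 0.43, edgeR adjusted p = 0.926). Pcdhb16 had 13.7, 17.8 and 26.6 CPM in WT and 12.7, 22.2 and 25.2 CPM in KO, likewise differing by 0.05 on the log2 scale (SE 0.269, 95% interval -0.55 to 0.65, edgeR adjusted p = 0.947). In both genes the K77 libraries were the low ones, and the spread between K numbers was wider than the difference between genotypes.

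**Figure D2:**
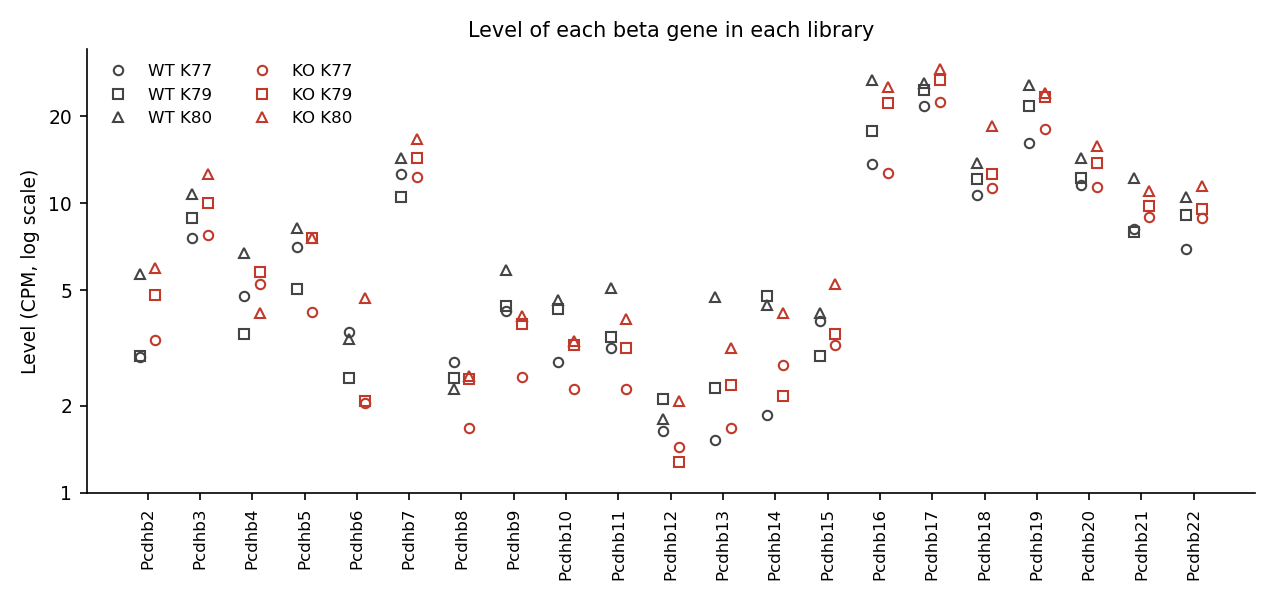
Level of each tested beta gene in CPM (log axis) in each library, with WT in grey, KO in red and the marker shape giving the K number. The genes Pcdhb16 to Pcdhb20 sit above 10 CPM in all libraries, and triangles (K80) are mostly the highest markers of a gene and circles (K77) mostly the lowest.

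Among the other beta genes, the log2 fold changes above zero were 0.30 for Pcdhb2, 0.16 for Pcdhb3, 0.01 for Pcdhb4, 0.22 for Pcdhb7 and 0.14 for Pcdhb15. The remaining genes with higher numbers gave 0.21 for Pcdhb18, 0.11 for Pcdhb20, 0.07 for Pcdhb21 and 0.17 for Pcdhb22. Below zero were Pcdhb5 (-0.06), Pcdhb6 (-0.07), Pcdhb8 (-0.16), Pcdhb9 (-0.46), Pcdhb10 (-0.40), Pcdhb11 (-0.30), Pcdhb12 (-0.19), Pcdhb13 (-0.24) and Pcdhb14 (-0.29). None of these passed the edgeR test, with adjusted p of at least 0.349.

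The intervals say how large a change these counts could have missed. The 95% interval lay within 1.5-fold either way for 9 of the 23 members, against 66.6% of all genes tested. These were Pcdha1, Pcdhga11 and 7 beta genes, namely Pcdhb4, Pcdhb7, Pcdhb17, Pcdhb19, Pcdhb20, Pcdhb21 and Pcdhb22. It lay within 2-fold for 21 members, against 86.5% of all genes, the exceptions being Pcdhb13 and Pcdhb14. For the other 14 members, Pcdhb16 and Pcdhb18 among them, the interval reached past 1.5-fold on at least 1 side, and the test does not show that they were unaffected. These intervals come from the fit without the K number. With the K number as a replicate block, those of Pcdhb16 (-0.21 to 0.31), Pcdhb18 (-0.09 to 0.49) and Pcdhb3 (-0.16 to 0.46) lay within 1.5-fold. That of Pcdhb4 then reached past it (-0.57 to 0.62).

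**Figure D3:**
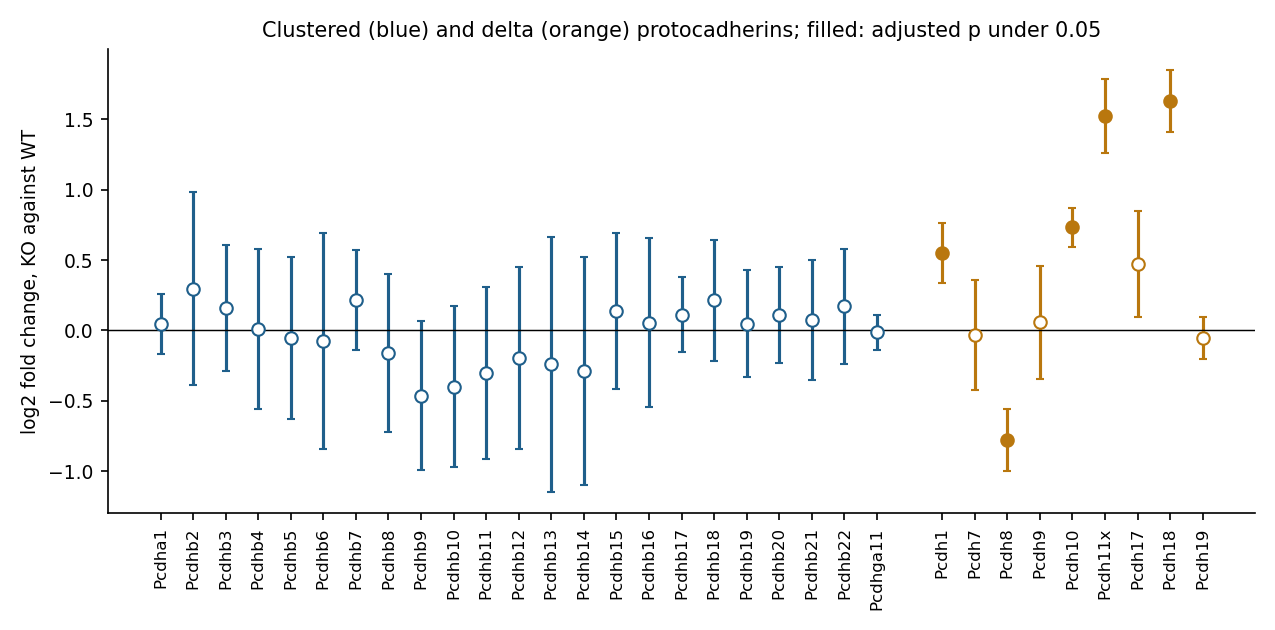
The log2 fold change of KO against WT with its 95% interval for the 23 tested clustered protocadherins (blue) and 9 delta protocadherins (orange), with filled points passing edgeR's adjusted p under 0.05. No blue point is filled, and 5 orange points are, from -0.78 (Pcdh8) to 1.63 (Pcdh18).

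Pcdhb9 came nearest to a difference. It had 4.25, 4.41 and 5.88 CPM in WT and 2.52, 3.84 and 4.07 CPM in KO. Each KO library lay below each WT library, and it was the 1 member of 23 without overlap between genotypes, where 23.2% of all genes tested had none, and 11.4% were lower in KO without overlap. The log2 fold change was -0.46 (SE 0.238, 95% interval -0.99 to 0.07, edgeR unadjusted p 0.0804, edgeR adjusted p = 0.349). With the K number as a replicate block its p was 0.0476 and its adjusted p 0.213, the 1 member under an unadjusted 0.05, where 22.8% of all genes were. Within K numbers, KO lay below WT in all 3 for Pcdhb9, Pcdhb10 and Pcdhb11 and above WT in all 3 for Pcdhb2, Pcdhb3, Pcdhb17, Pcdhb18 and Pcdhb22. Across all genes these shares were 22.1 and 22.3%.

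The signs were not scattered along the gene numbers, which follow the order of the genes on the chromosome. The runs described here were drawn after the values were seen and carry no test. All 7 genes from Pcdhb8 to Pcdhb14 had a log2 fold change below zero, from -0.46 to -0.16, and all 8 from Pcdhb15 to Pcdhb22 lay above zero, from 0.05 to 0.21. The 6 genes from Pcdhb2 to Pcdhb7 were mixed, with 4 above and 2 below.

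Summed over Pcdhb8 to Pcdhb14, the level was 18.1, 23.9 and 28.9 CPM in WT and 14.6, 18.5 and 23.4 CPM in KO. The ratio of KO to WT was 0.810, 0.776 and 0.808 in K77, K79 and K80, although the summed levels overlapped between genotypes. As a share of the beta counts, the run made up 12.1, 14.4 and 13.7% in WT and 9.98, 10.0 and 10.8% in KO, with Wilson 95% intervals of at most 1.83 points to a side. The shares did not overlap, which the choice of genes by sign favours. Leaving out both K79 libraries turned Pcdhb12 (0.060) and Pcdhb14 (0.14) above zero, and leaving out WT K80 turned Pcdhb13 (0.34). Summed over Pcdhb15 to Pcdhb22, the ratios were 1.04, 1.12 and 1.05, and over Pcdhb2 to Pcdhb7 they were 0.907, 1.33 and 1.05. Of the 8 genes from Pcdhb15 to Pcdhb22, the sign held in every fit with 1 library left out for Pcdhb17 and Pcdhb22, and turned in at least 1 such fit for the other 6.

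**Figure D4:**
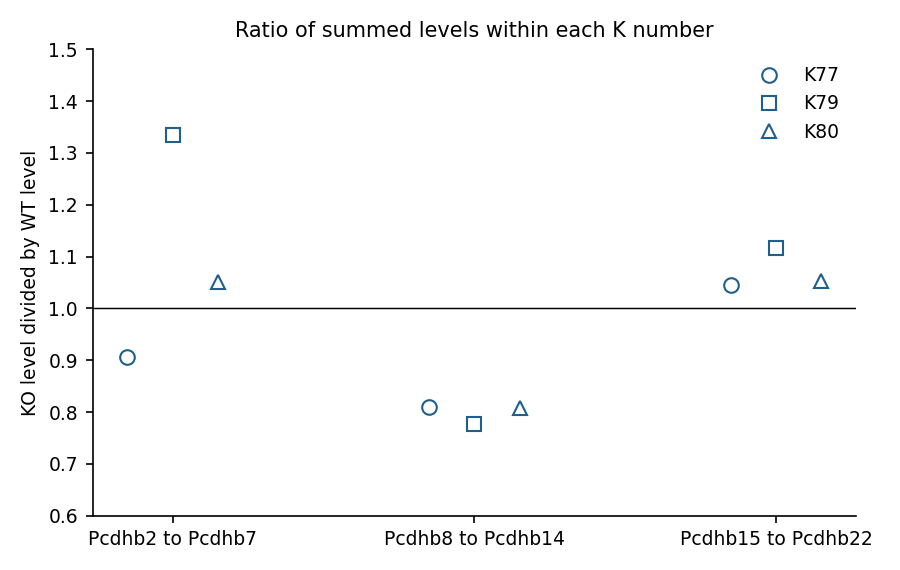
Summed CPM of a run of beta genes in KO divided by that in WT (vertical axis, ratio) within each K number. The 3 ratios for Pcdhb8 to Pcdhb14 lie between 0.776 and 0.810, those for Pcdhb15 to Pcdhb22 between 1.04 and 1.12, and those for Pcdhb2 to Pcdhb7 on both sides of 1.

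Most genes of the lower run were also among those with less unique sequence and lower counts. Of all 36-base windows in a beta gene's GENCODE M21 transcripts, 81.5% (Pcdhb12) to 100% (Pcdhb1) occurred in no other gene outside its span. The median was 93.0%. Gene models that overlap a beta gene on the chromosome were not counted, namely Gm37013, Gm37388 and Gm42416 for every beta gene. Gm37446 for Pcdhb12, and Pcdhb21 and Pcdhb22 for each other, were left out as well. The shares were 85.6, 85.6, 87.2, 85.7 and 81.5% for Pcdhb8 to Pcdhb12, and 94.6 and 95.9% for Pcdhb13 and Pcdhb14. Low shares were not particular to the run. Outside it, Pcdhb5, Pcdhb6 and Pcdhb7 had 86.6, 85.95 and 84.5%, with log2 fold changes of -0.06, -0.07 and 0.22. For several genes, the gene sharing the largest number of windows was another beta gene. Pcdhb8 shared 298 of its 3482 windows with Pcdhb6, Pcdhb9 311 of 3020 with Pcdhb7, and Pcdhb12 381 of 2999 with Pcdhb11. Reads could therefore be lost or exchanged between these pairs. Pcdhb14 shared windows with 2911 genes, 20 of them beta. The mean level of the run's genes was 1.72 to 4.16 CPM, against 3.85 to 25.1 CPM from Pcdhb15 to Pcdhb22. The part of either property in the signs was not tested.

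The beta genes were also compared between the K numbers of the libraries. This comparison was added after the values were seen. The fitted level was higher in K80 than in K77 for all 21 tested beta genes, by 1.07- to 2.45-fold, where 50.0% of all genes tested were higher. Their median log2 difference was 0.53, beside 0.00 for all genes, and the beta sum in K80 was 1.41 times that in K77 in WT and 1.47 times in KO. The log2 difference between K80 and K77 was -0.08 for the gamma row and 0.25 for the alpha row.

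The direction was read separately in each genotype. K80 lay above K77 in 19 of 21 beta genes in WT, where 49.7% of all genes did, and in 20 of 21 in KO, against 50.7%. It did so in both genotypes in 18, against 29.7%, the exceptions being Pcdhb4, Pcdhb6 and Pcdhb8. K77 was the lowest and K80 the highest in both genotypes for 12 beta genes, against 3.76% of all genes. In the fit over both genotypes this order held for 16 of 21, against 16.6%.

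An F test of the K number with genotype in the model called 0 of the 23 members at an edgeR adjusted p under 0.05, where 0.210% of all genes were called. At an unadjusted p under 0.05 it took 9 of 23, against 13.6% of all genes. By limma voom, 0 members were called, against 0.166% of all genes. It had 8 members at an unadjusted p under 0.05, against 13.4% of all genes. Pcdhb16 had the lowest value (fitted fold 1.95, adjusted p = 0.0740), followed by Pcdha1 (adjusted p = 0.168) and Pcdhb19 (adjusted p = 0.170). Pcdhb13 had the largest fold, 2.45, from 1.52, 2.30 and 4.74 CPM in WT and 1.68, 2.37 and 3.17 in KO. Its level climbed from K77 to K80 in both genotypes, yet its adjusted p was 0.200. Pcdhb16 was called when any library other than WT K80 was left out, in which fits 1.40 to 3.52% of all genes were called. Without the filter on low counts Pcdha1, Pcdhb13, Pcdhb16 and Pcdhb19 were called, with 2.96% of all genes.

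**Figure D5:**
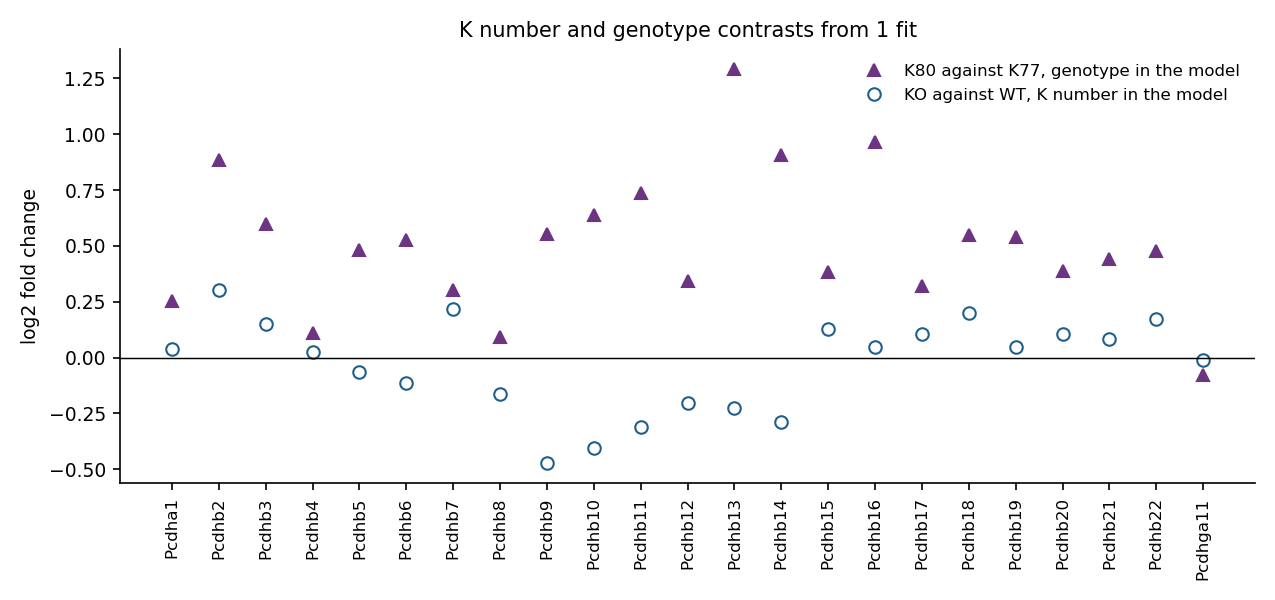
The log2 fold change of K80 against K77 (triangles) and of KO against WT (circles) for each tested member, both from 1 edgeR fit with genotype and K number. The triangles of the beta genes all lie above zero, while their circles lie on both sides of it.

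Other measures moved with the K number as well. K77 had the fewest gene counts and K80 the most in both genotypes, from 9196406 to 10558698 in WT and from 8323531 to 11069437 in KO. Markers of glutamatergic neurons summed to 422, 313 and 198 CPM in WT and 273, 218 and 245 CPM in KO. Endothelial and mural markers summed to 34.3, 36.6 and 20.0 CPM in WT and 35.9, 29.4 and 21 CPM in KO. Erythroid markers summed to 23.1, 16.5 and 13.6 CPM in WT and 17.4, 12.5 and 7.69 CPM in KO. The median log2 difference between K80 and K77 was -0.52 for glutamatergic, -0.82 for endothelial and mural, -0.84 for erythroid, -0.30 for oligodendrocyte precursor, -0.14 for MGE, -0.07 for progenitor and 0.17 for maturing neuron markers. Their part in the beta levels was not tested.

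The delta protocadherins, nonclustered relatives that also act in adhesion between neurons, did change with genotype. Of 9 tested, 4 rose and 1 fell by edgeR, where 3.64% of all genes were called higher and 2.62% lower in KO. Pcdh18 had 28.0, 35.4 and 28.6 CPM in WT and 98.6, 88.7 and 97.1 CPM in KO, which is 1.63 higher on the log2 scale (SE 0.0988, edgeR adjusted p = 4.66e-05). The KO libraries stood well above all WT libraries. Pcdh11x rose by a log2 fold change of 1.52, Pcdh10 by 0.73 and Pcdh1 by 0.55, and Pcdh8 fell by 0.78. These 5 calls held in each alternative tried. With the K number as a replicate block Pcdh17 was called too (log2 fold change 0.45, edgeR adjusted p = 0.0376). The median log2 difference of the delta genes between K80 and K77 was 0.00. By the F test of the K number, 4 of the 9 had an unadjusted p under 0.05 and edgeR called 0, with Pcdh9 0.57 and Pcdh17 0.34 higher in K80 than in K77, and Pcdh1 and Pcdh7 -0.03 and -0.06. These genes were chosen after their values were seen.

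Genes that regulate the clusters were examined next. Of 27 tested, 1 rose and 2 fell by edgeR, where 3.64% of all genes were called higher and 2.62% lower, and 7 had an unadjusted p under 0.05, against 18.4% of all genes. Dnmt3b, a DNA methyltransferase that methylates clustered protocadherin promoters in embryos, had 6.42, 8.72 and 4.93 CPM in WT and 20.8, 22.7 and 25.2 CPM in KO. All KO libraries lay above all WT libraries, by 1.77 on the log2 scale (SE 0.186, edgeR adjusted p = 0.000464), and the call held in each alternative. Rest, a repressor of neuronal genes, fell by 0.58 on the log2 scale (edgeR adjusted p = 0.0167). Uhrf1, which helps to maintain DNA methylation, fell by 0.40 (adjusted p = 0.0360). The Rest call was lost without WT K77, WT K80, KO K79 or KO K80 (adjusted p 0.0537 to 0.0857). The Uhrf1 call was lost without any library but WT K77 (adjusted p 0.0617 to 0.165) and without both K79 libraries (0.192).

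The insulator protein gene Ctcf had a log2 fold change of -0.14 (95% interval -0.26 to -0.01, edgeR adjusted p = 0.224) and the cohesin gene Rad21 one of -0.09 (95% interval -0.21 to 0.03, adjusted p = 0.447). Smchd1, a silencing factor of the clusters, had -0.10 (95% interval -0.23 to 0.03, adjusted p = 0.420). These 3 genes, with Dnmt3a and Hells, were chosen after their values were seen. Dnmt3a, the related methyltransferase, had 0.23 (adjusted p = 0.151) and was called with the replicate block (edgeR adjusted p = 0.0151). So was Hells, a chromatin remodeller, at -0.24 (adjusted p = 0.0491), which brought the regulators with the block to 2 that rose and 3 that fell, where 10.6% of all genes were called.

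Of 27 partners on the cell surface or in the cytoplasm, 1 rose by edgeR, a share near the 3.64% of all genes called higher. This was Prkca, which encodes a protein kinase C, at 85.7 ± 5.52 CPM in WT and 117 ± 3.24 CPM in KO (SD, n = 3 each; log2 fold change 0.45, SE 0.0658, edgeR adjusted p = 0.00273). The call held in each alternative. With the replicate block 3 partners rose, the WAVE complex gene Nckap1 (edgeR adjusted p = 0.0330) and the GDNF receptor gene Gfra1 (adjusted p = 0.0182) being the others, a share near the 10.6% of all genes called with the block. Ptk2 and Fyn, kinases of the pathway chosen after their values were seen, had log2 fold changes of -0.02 and -0.05.

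Genes next to the clusters on the same chromosome were examined as well. Of 14 tested, edgeR called 0, where 6.27% of all genes were called. At an unadjusted p under 0.05 there were 0, against 18.4% of all genes. The lowest p-values belonged to Zmat2 (log2 fold change -0.10, adjusted p = 0.472) and the histone deacetylase gene Hdac3 (-0.09, adjusted p = 0.490).

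Markers of other cell types in the sort differed between the genotypes in part. The 6 oligodendrocyte precursor markers summed to 126 to 148 CPM in WT and 50.8 to 59.2 CPM in KO. Of them, 5 fell by edgeR, where 3.64% of all genes were called higher and 2.62% lower. These were Pdgfra (41.0 CPM in WT and 8.52 in KO on average), Olig1 (19.6 and 5.59), Cspg4 (10.97 and 2.78), Gpr17 (8.19 and 0.478) and Sox10 (2.88 and 0.259). Among 10 maturing neuron markers Gap43 rose and Rbfox3 fell, and the other 8 were not called. Of the 9 MGE markers Nkx2-1, Gad2 and Sox6 rose and Dlx5 fell, and the other 5 were not called. No glutamatergic (7 tested), endothelial and mural (8), microglial (1) or erythroid (3) marker was called by edgeR, where 6.27% of all genes were called. At an unadjusted p under 0.05 there were 1, 1, 0 and 0 of them, against 18.4% of all genes. The lowest p-values of these lists belonged to Emx1 (log2 fold change -0.58, edgeR adjusted p = 0.256) and Neurod6 (-0.39, 0.307), Col1a2 (1.33, 0.154) and Rgs5 (-0.49, 0.382), Csf1r (-1.001, 0.312), and Hbb-y (-1.04, 0.292) and Hbb-b1 (-0.41, 0.563). With the replicate block 4 maturing neuron, 1 endothelial and mural and 1 erythroid marker were called, where 10.6% of all genes were. Whether these shifts touch the protocadherin levels was not tested.

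The authors' deposited table of the comparison listed all 24 members. In it 0 had an adjusted p under 0.05 and 0 an unadjusted one, the lowest being 0.101. The share of all genes called in that table was not computed, so these counts have no background to be read against.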

How the data were processed

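Poly-A RNA from 100 ng of total RNA was amplified by 15 PCR cycles and read for 36 cycles, per the labels' protocols. Per the submitters' processing notes, the build was mm9 and the tools HTSeq 0.5.3p3, TopHat 1.2.0 and DESeq 1.2.2, whose roles are not stated. The gene annotation and strand setting are not stated either. The deposited files hold raw read counts per gene, equal in the matrix and library files in 36291 rows. The authors' table holds p-values, per the file headers, beside a ratio (fold) and its log2. Rows naming no gene were left out (unassigned 19.7 to 21.8%, ambiguous 1.94 to 1.99% of counts).

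Counts were tested in R 4.3.3 with edgeR 4.0.16 (TMM, filterByExpr with minimum count 10, quasi-likelihood test, Benjamini-Hochberg adjustment over 13835 genes, threshold 0.05). SEs were obtained by dividing each log2 difference by the root of its F statistic. The common biological coefficient of variation was 9.26%. Alternatives used RLE or library totals, DESeq2 1.42.0, limma 3.58.1 (voom), other filters and thresholds, the K number as block, and each library left out. Replicates differed beyond sampling noise (chi-square per degree of freedom 3.55 to 9.70). Libraries sharing a K number in their titles deviated together from their genotype's mean (correlation across genes 0.256, 0.197 and 0.175 for K77, K79 and K80). Other pairs gave -0.176 to -0.00936, but centring on the genotype mean pushes these below zero when the former lie above it. From the positive values, the numbers were taken to pair the libraries.

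Members and lists were chosen with earlier results of these data known. Each tested member is named, and per-library values go to called members and to the 3 highest of each cluster. Companion lists give called genes, at most 6, or the 2 of lowest p. The genotype result of the progenitor list is not reported here. Pcdhb9, Pcdhb13, the runs of beta genes, the K-number test, and leaving out both K79 libraries were chosen once values had been looked at. The reference build differs from mm9, so it served for names and lengths, and no coordinates are printed.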

Additional observations from a re-analysis of the deposited data

How the results depend on the processing

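No clustered protocadherin was called for genotype under any of the 16 alternatives, and each summed cluster ratio moved by less than 1 SD between libraries. Calls over all genes were 1463 with the replicate block, 427 at adjusted p under 0.01, and 445 to 1044 with 1 library left out. For the K number, 4 members were called with no filter and 0 to 1 with 1 library left out. Signs of small differences were less stable. Without both K79 libraries the log2 fold change was -0.30 for Pcdhb4, 0.060 for Pcdhb12, 0.14 for Pcdhb14, -0.075 for Pcdhb16, -0.020 for Pcdhb21, 0.17 for Pcdh7 and -0.013 for Pcdh9, and limma voom gave 0.0016 for Pcdh7. With 1 library left out it ran from -0.027 to 0.14 for Pcdha1, -0.028 to 0.31 for Pcdhb3, -0.19 to 0.29 for Pcdhb4, -0.23 to 0.16 for Pcdhb5, -0.62 to 0.13 for Pcdhb6, -0.53 to 0.34 for Pcdhb13, -0.12 to 0.26 for Pcdhb15 and -0.15 to 0.35 for Pcdhb16. It ran from -0.034 to 0.35 for Pcdhb18, -0.11 to 0.20 for Pcdhb19, -0.011 to 0.22 for Pcdhb20, -0.040 to 0.30 for Pcdhb21, -0.037 to 0.024 for Pcdhga11, -0.19 to 0.23 for Pcdh7 and -0.091 to 0.25 for Pcdh9. The cause of these changes was not tested. The replicate block changed no member's call. Leaving out the C-type genes could not be run, as they have no rows. Tested beta genes had 12 to 322 counts per library, and counting error and spread between libraries were not separated.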
